A study of Mus musculus with 128 samples.

Results

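The late change of the ageing mouse lung, 30 months against 24 months, was measured across all expressed genes. It rests on 8 libraries, 4 at each of these ages, of a series with 4 libraries of each of 8 tissues at 6, 15, 24 and 30 months, and on the 17112 of 55285 listed genes that passed a minimum of 10 reads. The lungs came from untreated wild-type male C57BL/6J mice, and the ages were the difference between the groups that the labels name. Tissue was pulverised frozen and polyadenylated RNA was sequenced with a stranded kit, so a library holds RNA of all lung cells. In such whole tissue, fewer cells of a type and less RNA per cell cannot be told apart. The labels do not say whether the libraries of an age came from separate mice, so p-values measure only the spread between these samples. That spread was estimated per gene over the 16 Lung libraries of all 4 ages, not over the 8 compared alone. Values are the authors' normalised reads, log2 fold changes are 30 minus 24 months on the log2(value + 1) scale ± SE, and adjusted p is the two-sided Benjamini-Hochberg value of limma-trend over all genes tested. A gene rose or fell where that value was under 0.05.

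The lung exchanges gas across alveoli lined by flat alveolar type 1 cells and surfactant-making type 2 cells, over a capillary bed, and its airways are lined by club and ciliated cells. Mitochondria keep a small genome of their own, whose messenger RNAs encode core subunits of the respiratory complexes and are cut from long precursors at the transfer RNAs that lie between them. In messenger RNA, G and C pair more firmly than A and U, and a long untranslated 3' end rich in A and U is where many proteins and small RNAs that set stability bind.

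Recovered depth was 14.7 to 19.5 M reads at 24 months and 13.6 to 17.6 M at 30 months. Sftpc of type 2 cells (144067 to 174843 normalised reads at 24 months), Ager of type 1 cells (22561 to 25091) and Scgb1a1 of club cells were abundant in every library, as the tissue label says. Several libraries stood apart in summed marker levels. Neutrophil markers came to 34071 reads in 24-month replicate 4 against 6505.8 to 9788 in the other 7 libraries, and alveolar macrophage markers to 47504 there against 19196 to 33677. Red cell and platelet markers came to 400755 in 30-month replicate 3 against 63194 to 117030.0 elsewhere. B cell and plasma cell markers were highest in 30-month replicate 4 (81464 and 102111) and lowest in 30-month replicate 2 (14635 and 17402). Interferon-induced genes summed to 103227 in 24-month replicate 2 against 23493 to 66639 elsewhere. Counts with and without each library follow.

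Between 24 and 30 months 314 genes passed the threshold, and the change was one-sided: 292 rose (1.71% of the genes tested) and 22 fell (0.129%). Most changes were small. The genes that rose had a median log2 fold change of 0.38, and 15 of them exceeded 1. Those that fell had a median of -0.56. The median over all genes tested was -0.013. Before adjustment, 1324 genes (7.74%) were higher and 891 (5.21%) lower at a p under 0.05. The 4 libraries of an age did not overlap with the 4 of the other in 287 of the 292 genes that rose, where all genes gave 809 such genes (4.73%), and in 20 of the 22 that fell, where all genes gave 433 (2.53%). The called genes were chosen on these same libraries, so their separation follows in large part from that choice and is no further support. The number of calls depended on the method and on single libraries. DESeq2 called 528 genes, the 24- and 30-month libraries fitted alone gave 75, and a correction for GC content and length gave 34. Leaving out 24-month replicate 2 gave 155 calls and leaving out 24-month replicate 3 gave 180. The number that fell was 7, 9, 11 and 13 when 24-month replicates 1, 2, 3 and 4 were left out in turn, 10 when 30-month replicate 2 was, and 58 when 30-month replicate 3 was. The 292 genes that rose had a positive difference in each fit that left out 1 library. For the 287 without overlap this was fixed in advance, because leaving out 1 library cannot reverse their sign.

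**Figure D1:**
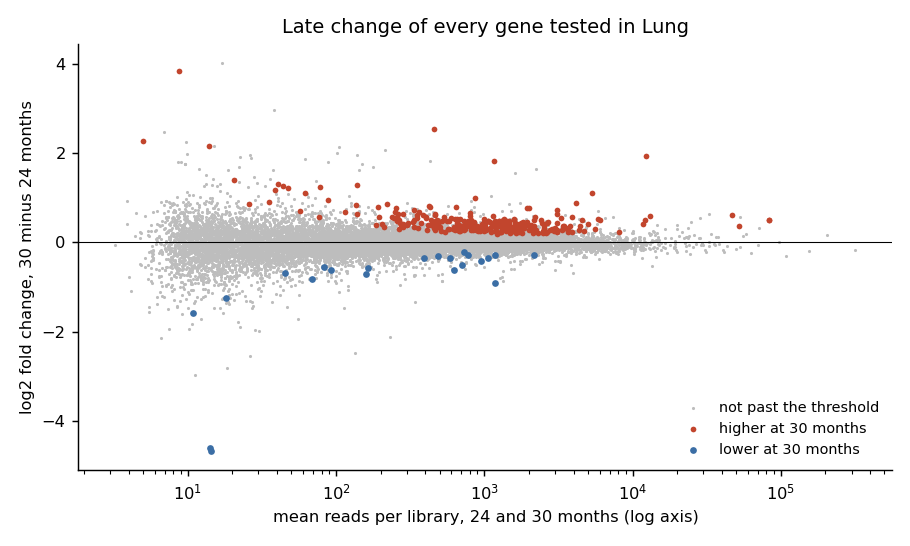
Log2 fold change at 30 against 24 months (vertical axis) of each of the 17112 genes tested in Lung against its mean reads per library over both ages (horizontal log axis), with the 292 genes that rose in red and the 22 that fell in blue. The red points lie mainly at middle and high levels and close to 0, and the single blue points far below 0 are at low levels.

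With predicted genes (Gm and Rik symbols) and antigen receptor segments set aside, and at 50 or more reads and no overlap of the ages, the highest changes were in mitochondrial genes. Of the 13 protein-coding genes of the mitochondrial genome, 5 rose, mt-Atp8, mt-Nd3, mt-Nd2, mt-Nd4 and mt-Nd1, none fell, and their median log2 fold change was 0.36 against -0.013 over all genes. They encode a small subunit of ATP synthase (mt-Atp8) and subunits of complex I (the mt-Nd genes). mt-Atp8 had 6589, 3564, 4606 and 7095 normalised reads at 24 months and 19200.4, 18392, 23029.8 and 19555 at 30 months. All 4 libraries at 30 months lay far above the 4 at 24 months, and the log2 fold change was 1.92 ± 0.22 (adjusted p = 0.000338). mt-Nd3 had 679.6, 427, 441 and 499 normalised reads at 24 months and 2021, 1110.4, 2464 and 1838 at 30 months. The lowest 30-month library, replicate 2, was still above the highest at 24 months, and the change was 1.83 ± 0.23 (adjusted p = 0.000584). mt-Nd2 had 36932, 33650.3, 39043 and 36848 normalised reads at 24 months and 57351, 50133, 63925 and 52680.4 at 30 months, a change of 0.61 ± 0.10 (adjusted p = 0.00285). mt-Nd4 rose by 0.51 (adjusted p = 0.0147) and mt-Nd1 by 0.36 (adjusted p = 0.0437), both without overlap of the ages. mt-Cytb, of complex III, had 90147, 92607, 101876 and 93282 reads at 24 months and 92817, 89919, 111633 and 88636 at 30, overlapping ranges, with a change of 0.014 ± 0.10. mt-Co1, the core subunit of complex IV, changed by 0.17 ± 0.10 and did not pass (adjusted p = 0.521). Single libraries decided mt-Nd1, which fell short without 24-month 1, 2, 3 or 4 or 30-month 1, 3 or 4 (adjusted p up to 0.135), and mt-Nd4, which fell short without 24-month 2 (adjusted p 0.0638).

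The 3 shortest protein-coding genes of the mitochondrial genome did not move alike in these tables. The reading frames of mt-Atp8 and mt-Nd4l lie on transcripts shared with mt-Atp6 and mt-Nd4, so a value listed for either is not that of a separate messenger RNA, and reads in the shared bases can belong to both. For that reason their sequences are shown, 5' to 3', from the GRCm38 reference, in which capitals mark bases shared with the next gene of the genome. mt-Atp8 lies at chrM:7766-7969 on the plus strand, has 204 bases and 31.9% GC, and shares 43 bases with mt-Atp6. mt-Nd3 lies at chrM:9459-9806, has 348 bases, of which the first 300 are shown, and 33.1% GC, and shares none. mt-Nd4l lies at chrM:9877-10173, has 297 bases and 41.1% GC and shares 7 bases with mt-Nd4.
mt-Atp8: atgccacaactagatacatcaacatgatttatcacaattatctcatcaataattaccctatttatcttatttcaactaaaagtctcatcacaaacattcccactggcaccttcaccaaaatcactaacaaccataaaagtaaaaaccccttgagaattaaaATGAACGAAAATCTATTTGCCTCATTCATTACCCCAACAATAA
mt-Nd3: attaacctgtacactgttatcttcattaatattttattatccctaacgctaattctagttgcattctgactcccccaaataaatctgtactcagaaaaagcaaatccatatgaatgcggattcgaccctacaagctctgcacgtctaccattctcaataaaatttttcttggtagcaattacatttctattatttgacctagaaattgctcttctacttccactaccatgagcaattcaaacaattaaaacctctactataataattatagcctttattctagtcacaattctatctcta
mt-Nd4l: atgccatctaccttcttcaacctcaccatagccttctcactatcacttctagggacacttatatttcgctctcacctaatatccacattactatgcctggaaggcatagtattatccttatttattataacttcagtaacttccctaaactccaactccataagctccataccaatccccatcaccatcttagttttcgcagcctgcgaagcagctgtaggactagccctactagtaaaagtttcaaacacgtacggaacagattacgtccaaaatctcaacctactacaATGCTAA
mt-Nd4l itself had 5873, 5868, 7096 and 7436 normalised reads at 24 months and 5963, 5894, 6237 and 5648 at 30 months, with overlapping ages and a change of -0.14 ± 0.13 (adjusted p = 0.715).

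Near-identical nuclear copies share reads with several of these genes, so they were also summed, and the copies named were chosen after their values were seen. Gm10222, which matches 294 bases of mt-Nd4l at 100% identity, rose by 1.10 ± 0.15 (adjusted p = 0.000907), while mt-Nd4l did not. Gm28438, which matches mt-Nd3 at 99.7% identity, rose by 0.87 (adjusted p = 0.000824), and Gm28439, which matches 876 bases of mt-Nd4, by 2.53 (adjusted p = 0.000686). Summed with its copy, mt-Nd3 rose by 1.07 ± 0.12 in place of 1.83 (limma-trend adjusted p = 0.000306). Of these summed reads 78.0% were listed under Gm28438, and values of mt-Nd3 in other paragraphs are those of the gene alone. mt-Atp6, of which 93.5% of the summed reads were listed under the copy Gm10925, rose by 0.52 ± 0.10 once summed (adjusted p = 0.0118) but not alone (0.70 ± 0.26, adjusted p = 0.251). mt-Nd4l changed by 0.40 ± 0.12 when summed and did not pass (adjusted p = 0.104). No copy of mt-Atp8, mt-Nd1, mt-Cytb or mt-Nd6 was found at 95% identity or more over 100 bases. Together the 13 genes and their copies took 4.45% ± 0.16 of all reads at 24 months and 5.43% ± 0.45 at 30 months (SD, n = 4 each), with no overlap between the ages (exact permutation p = 0.0286, two-sided, the smallest that 4 against 4 can give, and 0.0714 adjusted over 5 library measures).

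**Figure D2:**
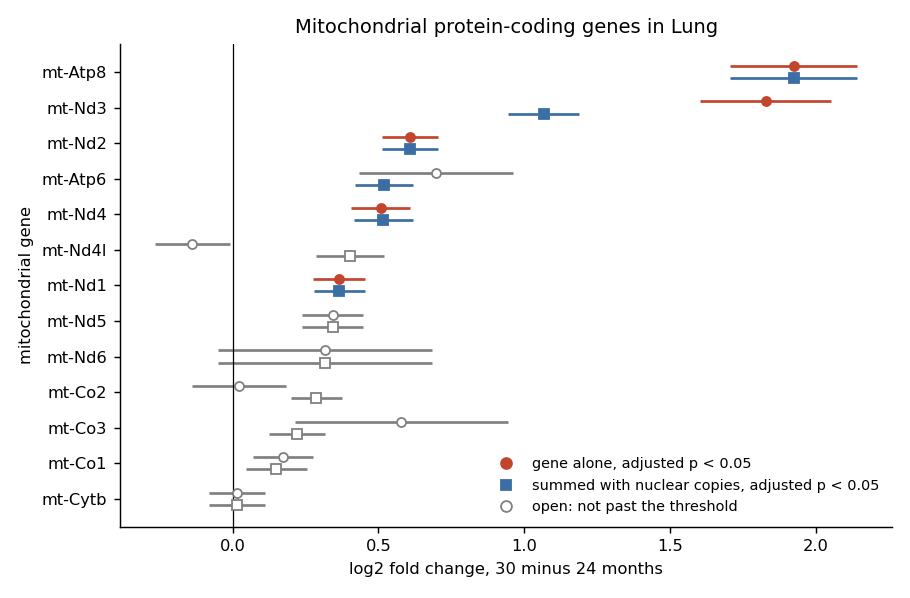
Log2 fold change at 30 against 24 months (horizontal axis, bars are ± SE) of the 13 mitochondrial protein-coding genes, for the gene alone (circles) and summed with its nuclear copies (squares), where filled symbols passed an adjusted p of 0.05. mt-Atp8 and mt-Nd3 stand to the right of the others, and mt-Cytb is near 0.

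Noncoding RNAs and zinc finger genes followed among the highest changes of named genes. Gt(ROSA)26Sor, the noncoding transcript of the Rosa26 locus that is used for transgenes, had 92.2, 72.5, 73 and 95.3 normalised reads at 24 months and 224, 206, 177 and 203 at 30 months. Its ages were far apart, and it rose by 1.28 ± 0.14 (adjusted p = 0.000338). Dnm3os, the opposite-strand transcript of Dnm3 and host of microRNAs, rose by 1.23 ± 0.24 (adjusted p = 0.0129), with the 30-month libraries between 75.6 and 172 reads and the 24-month ones between 36 and 62.7. Kantr, a long noncoding RNA, rose by 0.85 ± 0.11 (adjusted p = 0.000691). Zfp808 and Zfp758, zinc finger genes, rose by 1.10 and 0.86 (adjusted p = 0.00181 and 0.0024). Of all genes with symbols starting Zfp, a group chosen after its values were seen, 16 of 371 rose (4.31%, against 1.71% of all genes tested) and 1 fell, with a median of 0.046 against -0.013. Of noncoding RNAs chosen in the same way, Snhg14 rose by 1.31 (adjusted p = 0.0096) and Mir17hg, the host transcript of the microRNA cluster miR-17-92, by 0.69 (adjusted p = 0.0121). Long noncoding RNAs made up 10 of the 289 genes that rose and had an annotation (3.46%) and 6.59% of all genes tested.

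The other genes named among the highest changes have varied roles. Lox, the lysyl oxidase that crosslinks collagen and elastin, had 558, 599.8, 587 and 502 normalised reads at 24 months and 827, 2219.6, 1095 and 756 at 30 months. The 24-month libraries were close together, and 30-month replicate 2 was far above the other 7, so that the change of 0.98 ± 0.22 (adjusted p = 0.0318) had a wide spread. Thsd7a, a thrombospondin-repeat gene of endothelium, rose by 0.94 ± 0.22 (adjusted p = 0.0335), and Ntrk2, the receptor of brain-derived neurotrophic factor, by 0.80 ± 0.19 (adjusted p = 0.0405). Marcks, a substrate of protein kinase C at the membrane, rose by 0.77 ± 0.16 (adjusted p = 0.0189) and Prrg1, a transmembrane Gla protein gene, by 0.79 ± 0.16 (adjusted p = 0.0168). Vma21, an assembly factor of the vacuolar proton pump, had 313, 303, 274 and 354 normalised reads at 24 months and 588, 472, 559.5 and 564 at 30 months. It rose by 0.81 ± 0.093 (adjusted p = 0.000338) with no overlap. Styx, a phosphatase-like protein without catalytic activity, rose by 0.79 ± 0.091 (adjusted p = 0.000338). Without 1 of the 8 libraries the call was lost for Lox without 24-month 1, 2, 3 or 4 or 30-month 3 (up to 0.0842), Thsd7a without 24-month 1, 2, 3 or 4 or 30-month 2 or 4 (up to 0.102), Ntrk2 without 24-month 1, 2, 3 or 4 or 30-month 2 or 4 (up to 0.163), Prrg1 without 24-month 2 (0.0675) and Marcks without 24-month 2 or 3 or 30-month 2 (up to 0.0789), where the numbers name replicates and the brackets give adjusted p.

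**Figure D3:**
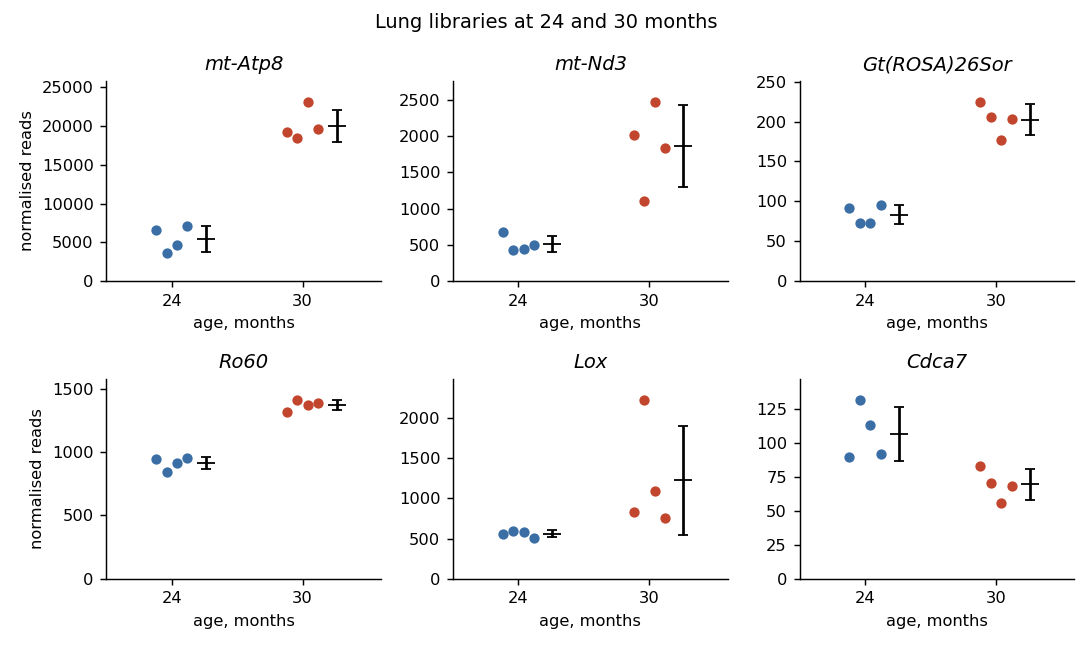
Normalised reads (vertical axes, each from 0) of 6 genes in the 4 libraries at 24 months (blue) and the 4 at 30 months (red), with mean ± SD beside each group. The ages are apart in mt-Atp8, mt-Nd3, Gt(ROSA)26Sor and Ro60, 1 library at 30 months is far above the other 3 in Lox, and Cdca7 is lower at 30 months.

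The smallest p-values belonged to genes with moderate, even changes, and all genes of the following sentences were chosen after their values were seen. Ro60, which binds small noncoding Y RNAs and misfolded RNA, had 945, 844, 914 and 954 normalised reads at 24 months and 1318, 1411, 1374 and 1389 at 30 months. Each age had a narrow range, and it rose by 0.59 ± 0.055 (adjusted p = 0.000123). Cav2, which forms caveolae with caveolin 1, had 3195, 2899, 3272 and 3168 normalised reads at 24 months and 4859, 4507, 4894 and 4358 at 30 months, again without overlap, and rose by 0.57 ± 0.054 (adjusted p = 0.000123). Cav1, a marker of type 1 cells and endothelium, changed by 0.089 and did not pass (adjusted p = 0.616). Bmi1, a Polycomb ring finger protein, rose by 0.53 ± 0.057 (adjusted p = 0.000338), Cpsf6, a subunit of the complex that cuts the 3' ends of messenger RNAs, by 0.51 ± 0.057 (adjusted p = 0.000338), and Ube2d3, a ubiquitin-conjugating enzyme, by 0.51 ± 0.071 (adjusted p = 0.00133). Ppp1r2, an inhibitor of protein phosphatase 1, rose by 0.64 (adjusted p = 0.00133) and Tmed7, a cargo receptor of the secretory pathway, by 0.44 (adjusted p = 0.0024). Splicing factor genes with symbols starting Srsf or Hnrnp, a group also chosen afterwards, rose in 6 of 31 cases (19.4%, against 1.71% of all genes), none fell and their median was 0.073 against -0.013. Srsf1 rose by 0.36 ± 0.049 (adjusted p = 0.00115), and Hnrnpa2b1 by 0.23 ± 0.049 (adjusted p = 0.0233). The call of Hnrnpa2b1 was lost without 24-month 1, 2 or 3 or 30-month 1, 2 or 4 (adjusted p up to 0.0982). Receptors of the TGF beta superfamily included Acvr2a (up by 0.47, adjusted p = 0.0101) and Bmpr2 (up by 0.41, adjusted p = 0.0411), the latter lost without 24-month 1, 2, 3 or 4 or 30-month 2, 3 or 4 (adjusted p up to 0.144). Ogn, the small matrix proteoglycan osteoglycin, rose by 0.53 (adjusted p = 0.0024).

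Genes that fell were few, and the rule on level and overlap left 13 of them to name, beside Bpifb1 and Ces1g, which were chosen after their values were seen. Bpifb1, a secreted airway protein of the BPI fold family, had 1495, 1609, 1088 and 1605 normalised reads at 24 months and 919, 619, 1159 and 497 at 30 months. Replicate 3 of each age overlapped, and the gene fell by 0.92 ± 0.21 (adjusted p = 0.0355). Ces1g, a carboxylesterase, fell by 0.72 ± 0.17 (adjusted p = 0.0384), with 2 libraries that overlapped. Cdca7, a gene of the cell division cycle, had 89.7, 132, 113 and 91.9 normalised reads at 24 months and 83.4, 70.2, 56 and 68.4 at 30 months. All 4 libraries at 30 months were below those at 24 months, and it fell by 0.61 ± 0.15 (adjusted p = 0.0453). The calcium pump Atp2b2 fell by 0.57 (adjusted p = 0.0181), the thrombospondin Thbs3 by 0.51 (adjusted p = 0.0233) and the interferon-inducible Ifi27 by 0.41 (adjusted p = 0.0305). Subunits of respiratory complexes encoded in the nucleus were among them: Uqcr10 of complex III had 740.0, 797, 739 and 768 normalised reads at 24 months and 657, 650.3, 668 and 645 at 30 months, a narrow range at each age, and fell by 0.22 ± 0.052 (adjusted p = 0.0437), and Atp5j2 of ATP synthase fell by 0.34 (adjusted p = 0.0305). The epithelial genes Cgn, of tight junctions, and St14, the membrane protease matriptase, fell by 0.29 and 0.28 (adjusted p = 0.0402 and 0.047). Smim26, Cops9, Zfp467, Cib1 and Aox1 fell by 0.54, 0.34, 0.34, 0.31 and 0.29 on the log2 scale. Leaving out 1 library ended calls in each of these genes: Bpifb1 without 24-month 1, 2 or 4 or 30-month 2 or 4 (up to 0.129), Ces1g without 24-month 1, 3 or 4 or 30-month 1, 2 or 4 (up to 0.134), Cdca7 without 24-month 2 or 3 or 30-month 2, 3 or 4 (up to 0.182), Atp2b2 without 24-month 3 or 30-month 1 or 2 (up to 0.0698), Thbs3 without 24-month 1 or 3 or 30-month 2 or 4 (up to 0.0844) and Ifi27 without 24-month 1, 2 or 4 or 30-month 2 (up to 0.107). The same held for Uqcr10 without any of the 8 (up to 0.169), Atp5j2 without 24-month 1, 2 or 4 or 30-month 2 or 4 (up to 0.123), Cgn without 24-month 1, 2 or 3 or 30-month 2, 3 or 4 (up to 0.132), St14 without 24-month 1, 2, 3 or 4 or 30-month 1, 2 or 4 (up to 0.138), Smim26 without 24-month 1, 2, 3 or 4 or 30-month 2 or 4 (up to 0.136), Cops9 without any of the 8 (up to 0.118), Zfp467 without 24-month 1 or 3 (up to 0.0704), Cib1 without any of the 8 (up to 0.146) and Aox1 without 24-month 1, 2 or 3 or 30-month 1, 3 or 4 (up to 0.176), with adjusted p in brackets.

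No member of the cell type marker lists passed the threshold. The marker lists covered alveolar, airway, endothelial, mesenchymal, macrophage, dendritic, neutrophil, lymphoid, mast and red cells and possible neighbouring tissues. Alveolar type 2 markers had a median log2 fold change of -0.13, with 4 of 14 lower at an unadjusted p under 0.05 (5.21% of all genes), among them Lyz1 at -0.61 ± 0.16 (adjusted p = 0.0714). Type 1 markers had a median of -0.069, ciliated markers -0.15 with 11 of 12 negative and club cell markers -0.16 with 10 of 11 negative. Neutrophil markers were negative in 13 of 13 with a median of -0.37, and without 24-month replicate 4 the median was 0.18 with 2 of 13 negative. Plasma cell markers had a median of 0.32 with 4 of 16 higher unadjusted, against 7.74% of all genes. Without 30-month replicate 4 their median was -0.039, and without 30-month replicate 2 it was 0.71. Without 30-month replicate 3, 1 plasma cell marker passed as lower. Ighg3 had 48.6, 45, 155 and 97.5 normalised reads at 24 months and 145, 429, 399 and 151 at 30 months, with 1 library at 24 months inside the 30-month range. Igkc, the immunoglobulin kappa constant region, ran from 6321 to 67528 reads at 30 months and from 13179 to 27085 at 24 months and did not pass (adjusted p = 0.847). Red cell and platelet markers had a median of 0.55, and 0.032 without 30-month replicate 3, the library with the highest sum. The part of these cells in other changes was not tested.

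Immune pathway lists were also without calls. None of the 38 genes of the interferon list, which does not hold Ifi27, 19 genes of MHC class I and antigen processing, 11 of MHC class II, 20 of complement and 28 inflammatory cytokines and chemokines passed, and their medians lay between -0.14 and -0.041. The interferon list summed to 103227 reads in 24-month replicate 2, against 23493 to 66639 in the other libraries. That library also had the highest sums of the MHC class I (219413) and MHC class II (132679) lists. Medians of these lists without it were not computed. Gpnmb, a glycoprotein of lipid-laden macrophages, had 666, 705, 501 and 1884 normalised reads at 24 months and 592, 1103, 795 and 562 at 30 months, and its ages overlapped. The values for C4b, Cxcl13, Cd74, B2m and Zbp1 were -0.12, 0.52, -0.17, 0.11 and -0.18 on the log2 scale, all with an adjusted p of 0.7 or more. Lpl, lipoprotein lipase, came close at 0.53 ± 0.13 (adjusted p = 0.0508).

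In the list of 35 genes of cell cycle and DNA replication 33 were negative, the median was -0.36 and none passed. Before adjustment 15 of 35 were lower, against 5.21% of all genes. Kif20a, a kinesin of cell division, had 96.4, 147, 79.9 and 90.8 normalised reads at 24 months and 71.7, 43.6, 56.9 and 74.5 at 30 months, with no overlap, and did not pass (-0.73 ± 0.21, adjusted p = 0.115). Mki67 of dividing cells changed by -0.46 ± 0.18 (adjusted p = 0.281). The unadjusted count of this list was 3 without 24-month replicate 2 or without 30-month replicate 2, 8 without 24-month replicate 1 or without 30-month replicate 3, and 22 without 30-month replicate 4, where Mki67 passed. Of 23 tested fibrillar and network collagens none passed, and Col1a1, Col3a1 and Eln had -0.27, -0.41 and 0.32. Of 23 tested collagen processing and crosslinking genes Lox alone passed.

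In the senescence and p53 list 2 of 22 genes rose, where 1.71% of all genes did, and none fell. The list's median was 0.088 against -0.013 over all genes. Trp53inp1, a p53 target of stress responses and autophagy, had 1426, 1509, 1416 and 1615 normalised reads at 24 months and 2079, 2762, 2448 and 2918 at 30 months. The ages were apart and it rose by 0.76 ± 0.13 (adjusted p = 0.00417). Cdkn1b, the cyclin-dependent kinase inhibitor p27, had 1419.6, 1229, 1219.6 and 1356 normalised reads at 24 months and 1745, 2201, 1507 and 1992 at 30 months and rose by 0.50 ± 0.091 (adjusted p = 0.00811), again without overlap. Cdkn1a, which encodes p21, had 874, 995, 818 and 1106 normalised reads at 24 months and 1013, 2201, 1192 and 1259.8 at 30 months. Its 30-month replicate 2 was far above the other libraries and it did not pass (0.52 ± 0.23, adjusted p = 0.352), and neither did Cdkn2a (0.46, adjusted p = 0.652).

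Nuclear genes of the respiratory complexes had mostly negative values, where 9126 of all 17112 genes tested were negative. Their medians, and the median of the mitochondrial genome's own messenger RNAs, were smaller in size after the correction for GC and length given below. Against the 5 mitochondrial genes that rose, 38 of 40 nuclear genes of complexes I and II were negative with a median of -0.090, and 31 of 32 of complexes III to V with a median of -0.10. Of these 32, Uqcr10 passed. The list does not hold Atp5j2, which also fell, and 13 of its 45 symbols were not tested, all newer symbols of ATP synthase genes that the list also holds under older ones. Unadjusted, 10 of 40 and 8 of 32 were lower, against 5.21% of all genes. All 78 tested cytosolic ribosomal protein genes were negative with a median of -0.13, 25 of 78 of them at an unadjusted p under 0.05 (again against 5.21%), and none passed. Leaving out 24-month replicate 1, 24-month replicate 2 or 30-month replicate 2 gave 14, 12 and 15. Of 25 tested genes of cholesterol and fatty acid synthesis none passed and 6 were higher unadjusted, against 7.74% of all genes, led by Idi1 (0.41 ± 0.11, adjusted p = 0.0661). Of 16 glucocorticoid and metallothionein genes 15 were positive with a median of 0.43, where 7986 of all 17112 genes were positive, and none passed. Their summed reads overlapped, from 20453 to 29084 at 24 months and from 24166 to 41639 at 30 months, highest in 30-month replicate 2. In the airway list of 19 genes of xenobiotic metabolism Sult1d1, a sulfotransferase, rose by 0.64 ± 0.13 (adjusted p = 0.0189), lost without 24-month 2, 3 or 4 (adjusted p up to 0.0698), and Ces1g fell. Heat shock, clock, immediate early, hypoxia, endoplasmic reticulum stress, antioxidant and Wnt, Hippo and FGF lists had no gene past the threshold.

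The genes that rose shared a base composition. Matched transcripts of the 289 that could be matched had a median GC content of 40.1%, against 50.2% over all 16883 matched genes and 55.2% for the genes that fell. Of the genes that rose 258 (89.3%) had under 45% GC, against 22.2% of all. With all genes in 10 equal bins of GC, the lowest bin held 210 of the genes that rose, 12.4% of its genes, and the 4 highest bins together held 2. The median log2 fold change was 0.19 in the lowest bin and -0.053 in the highest. Their 3' untranslated ends were long, with a median of 2299 bases against 937 over all genes and 243 in those that fell. ATTTA, read on the transcript strand, came to a median of 3.13 per kilobase of 3' untranslated end in the genes that rose and 1.16 in all genes. TGTANATA, the letters bound by Pumilio proteins, was present in 51.9% of their 3' ends against 23.3% of all, and per kilobase it came to 0.354 against 0.238. Both motifs are made mostly of A and T, and these 3' ends had a median GC content of 34.9% against 44.8% over all genes. Whether either motif was more frequent than this base composition gives was not tested. With genes in 3 equal bins of transcript length and 4 of GC, the lowest GC bin held the most genes that rose at each length (3.06%, 6.77% and 7.61% from short to long transcripts), against at most 0.576% in the other bins.

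The same slope was present in the libraries themselves. Over 13505 genes with a mean of 50 or more reads, the slope of a library's deviation from the gene mean on GC, in log2 units per 10 points of GC, was 0.011, 0.060, 0.054 and -0.023 at 24 months and -0.10, -0.089, -0.049 and -0.10 at 30 months. No 30-month library overlapped with the 24-month ones, and the means differed by -0.11 (exact permutation p = 0.0286, two-sided, 0.0714 adjusted over 5 measures). The libraries at 6 and 15 months ran from 0.0053 to 0.074, and 30 months was the age at which all 4 were below 0. The slope on length, the share of the 10 most abundant genes and depth did not separate the ages (exact permutation p = 0.371, 0.8 and 0.171). The part of this slope in the calls of single genes was not tested beyond the correction that follows.

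**Figure D4:**
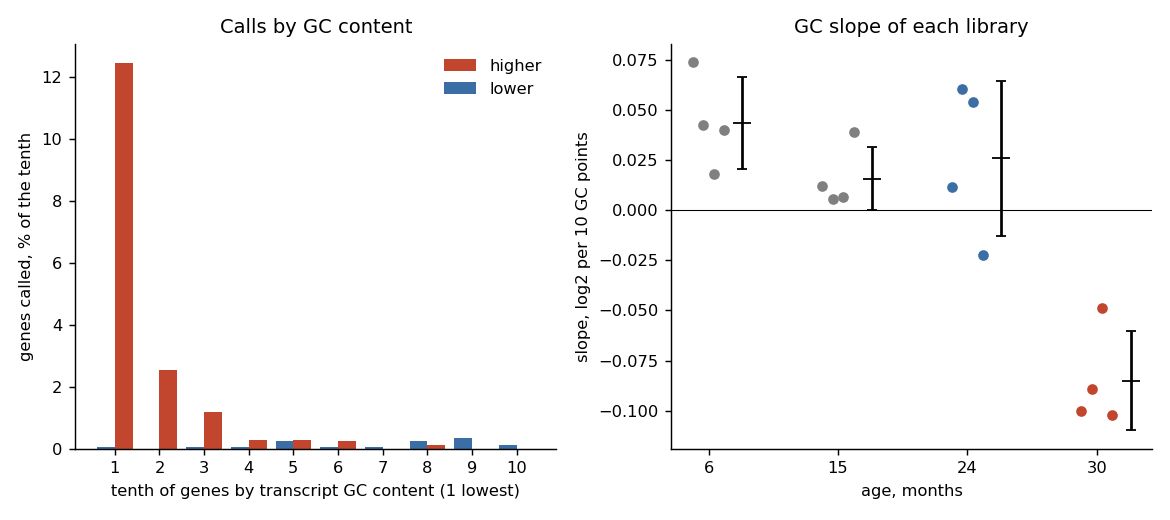
Left, share of genes that rose (red) and fell (blue) at 30 against 24 months in each of 10 equal bins of genes by transcript GC content. Right, slope of each Lung library on GC content (log2 units per 10 points) by age, with mean ± SD beside each age, where the 4 libraries at 30 months lie below 0 and below all others.

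Removing each library's own smooth relation to GC and length left 34 genes past the threshold in place of 312 over the same matched genes, 28 higher and 6 lower. All 28 that were higher also rose without the correction, and the genes that rose had a median of 0.22 after it in place of 0.38. mt-Nd3 stayed past the threshold at 1.33 (adjusted p = 0.0249), Gt(ROSA)26Sor at 1.01 (adjusted p = 0.00601), Cpsf6 at 0.54 (adjusted p = 0.00601), Styx at 0.49 (adjusted p = 0.0127), Vma21 at 0.46 (adjusted p = 0.0389), Bmi1 at 0.35 (adjusted p = 0.0249), Ro60 at 0.30 (adjusted p = 0.0197), Srsf1 at 0.44 (adjusted p = 0.00601), Ube2d3 at 0.45 (adjusted p = 0.0212), Ppp1r2 at 0.53 (adjusted p = 0.0249) and Tmed7 at 0.51 (adjusted p = 0.00601), all from limma-trend. mt-Atp8 did not pass at 1.33 (adjusted p = 0.0614), and mt-Nd1, mt-Nd2 and mt-Nd4 did not either (0.13, 0.27 and 0.15). Lox, Trp53inp1, Cdkn1b and Cav2 had 0.93, 0.52, 0.42 and 0.27 after correction and did not pass. Of 52 called genes named or tabulated for this account, 12 kept their call, the 11 above and Gm28439, and none of these fell. The genes that had fallen before the correction had a median of -0.51 after it in place of -0.56, and single genes differed. Cdca7 had -0.58 in place of -0.61 and Atp2b2 -0.53 in place of -0.57, so these calls were lost with changes of about the same size. Uqcr10 had -0.11 in place of -0.22 and Cib1 -0.20 in place of -0.31. The 5 genes called lower after the correction but not before were Psmc6, Psma2, Sem1, Cetn3 and Asf1a, of which the first 3 encode proteasome subunits. Their corrected changes were -0.28, -0.33, -0.41, -0.39 and -0.40. Among 48 proteasome genes, which include the 3 that led to the choice of this group, 5 were lower unadjusted and the median was -0.042. Of all 16883 matched genes 638 were lower unadjusted. Before the correction 6 of the 48 were lower unadjusted and the median was -0.093. An age effect that itself follows GC or length is removed by this correction as well, and these cannot be told apart. After it the ribosomal list had a median of -0.039 in place of -0.13, with 8 of 78 lower unadjusted. The cell cycle list had a median of -0.33 in place of -0.36, with 12 of 35 lower unadjusted. The 13 mitochondrial protein-coding genes had a median of 0.13 in place of 0.36, and 1 passed as higher in place of 5. Nuclear genes of complexes I and II had a median of -0.017 in place of -0.090, with 5 of 40 lower unadjusted. Those of complexes III to V had a median of -0.021 in place of -0.10, with 2 of 32 lower unadjusted. Over all 16883 matched genes 638 were lower unadjusted after the correction.

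Over the whole age series most genes that rose were at their highest at 30 months and at their lowest at 24 months. The genes that rose had median levels of 0.0020, -0.14 and 0.26 at 15, 24 and 30 months on the log2 scale relative to 6 months, and these values share the 24- and 30-month libraries with the late change itself. Of the 292, 282 were highest at 30 months and 241 lowest at 24 months. The genes that fell had medians of -0.041, 0.12 and -0.36. mt-Atp8 stood at -0.042, -0.73 and 1.19 against 6 months at the 3 later ages, and mt-Nd3 at -0.39, -1.13 and 0.70. Bpifb1 stood at -0.25, -0.89 and -1.81.

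Set against the other tissues, the late change of Lung differed from their mean for 173 of 21469 genes tested (0.806%), 158 of them above and 15 below. The count was 831 without the filter on low values and 276 with limma-voom. Each table was normalised separately, so differences are those of within-table changes. Of the 292 genes that rose in Lung, 124 were among the 158, and of the 22 that fell 3 were among the 15. Both comparisons hold the same Lung libraries, so this overlap follows in part from how the genes were chosen. mt-Atp8 was 2.18 above the mean of the other 7 tissues, where its own changes ran from -0.50 to 0.11 and none passed, and mt-Nd3 was 2.09 above. Gt(ROSA)26Sor was 1.26 above and Vma21 0.82. Without the 24-month Heart library replicate 4, which has 7.65 M reads and a slope on GC of -0.87 over the genes of this fit, the count was 200. It was 90 without Lung 24-month replicate 2. In their own tables, genes that rose in Lung had a median late change of -0.19 in Heart, -0.10 in Liver, -0.056 in Kidney, -0.028 in Muscle, 0.0032 in Aorta, 0.034 in Brain and 0.036 in Skin. The median late change of genes under 45% GC was 0.11 in Lung against -0.052 for genes over 55%, while it was -0.17 against 0.26 in Heart, -0.089 against 0.090 in Liver and 0.038 against -0.057 in Brain.

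**Figure D5:**
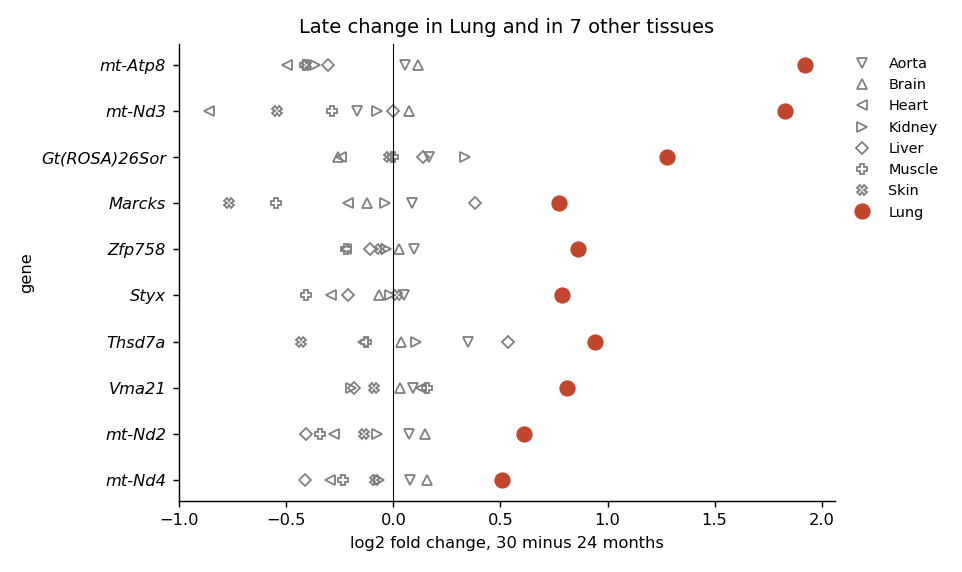
Log2 fold change at 30 against 24 months (horizontal axis) of 10 genes whose late change in Lung (red circles) differed from the mean of the 7 other tissues (grey symbols, each within its own table). The Lung value is the highest of the 8 tissues in each gene, and the genes were chosen from those that rose in Lung.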

How the data were processed

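Lung is 1 of 8 tissues at 4 ages, with 16 libraries. Per the submitters' processing notes, the tools were FastQC, STAR, RSEM and DESeq2 and the genome build GRCm39. Versions and annotation were not given in the sources used here. For Lung, the authors deposited a table of normalised signal per gene and library, in which 100% of values are whole reads within 0.01 once multiplied by 1 factor per library. Reads could be recovered, and depth ran from 13.6 to 19.5 M in the 8 libraries compared. The filterByExpr function (edgeR 4.0.16, minimum 10 reads) chose the genes, which were fitted with 1 mean per age over 16 libraries on log2(value + 1) by limma 3.58.1 (eBayes trend, R 4.3.3), and adjusted by Benjamini-Hochberg at 0.05. The difference from other tissues was fitted on the libraries of all 8 tissues. DESeq2 1.42.0, edgeR, limma-voom, filters, pseudocounts and leaving out each library were alternatives. Genes named are the 15 highest and the lowest changes that passed, at 50 or more reads on average and without overlap (13 passed as lowest), leaving out Gm and Rik symbols and immunoglobulin or T cell receptor segments, up to 4 members of a list with the smallest p, and 20 panel genes. Others were chosen after their values were seen, and this is said. The members and lists were chosen with earlier results of these data known.

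Transcript length and GC came from GENCODE vM21 (GRCm38), which differs from the files' build, by symbol for 16883 of 17112 genes, from the transcript with the longest coding sequence. Nuclear copies of mitochondrial genes were found with BLAST 2.17.0. Replicates differed by more than sampling noise (lowest chi-square per degree of freedom 4.66, in a pair at 6 months). The fit was tested on simulated data. Tables were read with the package data.table (1.17.8), and Python 3.11.15 with matplotlib 3.10.9 drew the figures.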

Additional observations from a re-analysis of the deposited data

Results flagged for a closer look

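In 7 of 160 groups of 4 libraries, which are 80 genes at the 2 ages, 1 library lay further from the others than Dixon's 95% critical value allows on the log2 scale, where chance gives about 1 in 20 groups. Zfp808 was 50.3 normalised reads in 24-month replicate 1, against 35 to 37 in the other 3. Zfp758 was 244 normalised reads in 30-month replicate 3, against 301 to 310.0 in the other 3. Cib1 was 500.3 normalised reads in 24-month replicate 1, against 529.8 to 533 in the other 3. Dbp was 1433 normalised reads in 24-month replicate 4, against 2944 to 3413 in the other 3. mt-Co1 was 240124 normalised reads in 30-month replicate 3, against 203859 to 209069 in the other 3. Hnrnpa2b1 was 8221 normalised reads in 30-month replicate 3, against 8755 to 8797 in the other 3. Bmpr2 was 8278 normalised reads in 24-month replicate 2, against 10425 to 10919 in the other 3.

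In 22 of the same 80 genes the late change of Lung differed from the mean of the other 7 tissues in a direct test of that difference (limma-trend over the libraries of all 8 tissues, adjusted over 21469 genes). Over all genes it was 173 of 21469 (0.806%). Many of the 80 had been chosen by their late change in the same Lung libraries, so the 2 shares cannot be compared. The differences, Lung minus the others in log2 units, were Acvr2a 0.50, Bmi1 0.54, Bmpr2 0.49, Cav2 0.64, Cpsf6 0.56, Gm28439 2.58, Gt(ROSA)26Sor 1.26, Marcks 0.95, mt-Atp8 2.18, mt-Nd2 0.76, mt-Nd3 2.09, mt-Nd4 0.63, Ppp1r2 0.67, Ro60 0.58, Snhg14 1.34, Srsf1 0.42, Styx 0.92, Thsd7a 0.90, Tmed7 0.51, Ube2d3 0.59, Vma21 0.82 and Zfp758 0.94.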

How the results depend on the processing

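Alternatives were run for the counts of calls and for 80 named genes, 52 of which passed the threshold. None of the 52 changed sign under any alternative run, 12 kept their call under all, and 27 under the leaving out of each library. In a gene without overlap of the ages, leaving out 1 library cannot change the sign. limma-trend with TMM-scaled reads, edgeR with TMM (296) or RLE (314), a mean of 50 or more reads, pseudocounts of 0.1 and 5 and no filter on low values kept all Lung calls within 1.5 times of 314. DESeq2 gave 528 (476 higher, 52 lower), of which 302 are among the 314. The 24- and 30-month libraries alone, with less information on spread, gave 75 (73 and 2). limma-voom with quality weights gave 12 lower. An adjusted p under 0.1 gave 497 in all and 60 lower. The GC and length correction, chosen after seeing the data, gave 34 (28 and 6). Leaving out 1 library gave 155 to 353 in all, 146 to 295 higher and 7 to 58 lower. Of genes that differ between Lung and the other tissues (173), no filter on low values gave 831, limma-voom 276, and leaving out 1 library 90 to 200. Deviations of same-numbered libraries of the ages had correlations of 0.076, -0.068, 0.26 and 0.065, with 1 of 4 best with its own number. So few values cannot exclude a pairing by number, which the labels do not give. With the replicate block the counts were 270, 256 higher and 14 lower, and 181 for the difference between tissues. The genes that changed sign had not passed. Leaving out 1 library gave ranges of -0.12 to -0.0024 for Ager, -0.032 to 0.32 for B2m, -0.29 to 0.0032 for Cd74, -0.39 to 0.25 for Gpnmb, -0.22 to 0.92 for Igkc, -0.29 to 0.74 for Jchain, -0.22 to 0.16 for Per2, -0.56 to 0.27 for Zbp1, -0.089 to 0.13 for mt-Co2, -0.061 to 0.051 for mt-Cytb, -0.19 to -0.076 for mt-Nd4l and -0.019 to 0.72 for mt-Nd6. For these genes the GC and length correction gave -0.074 for Jchain, 0.032 for Ager, -0.16 for mt-Co2, -0.15 for mt-Cytb and -0.11 for mt-Nd6, and summing the mitochondrial copies gave 0.40 for mt-Nd4l. Recovered depth was 13.6 to 19.5 M reads, and genes with few reads had wide errors.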
